A study of Mus musculus with 6 samples.

Results

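The genes described here are 8 cardiac genes, of which 5 encode regulators of heart development (Nkx2-5, Isl1, Mef2c, Myocd and Smarcd3) and 3 encode proteins of the cardiac sarcomere (Tnnt2, Myl7 and Myh6). Their members are the accessible regions, or peaks, whose summit lay nearer to one of these genes than to any other protein-coding gene, within 100 kb. These were 78 of the 205844 FM peaks and 61 of the 139164 KO peaks on assembled chromosomes. ATAC-seq, which uses the transposase Tn5 to cut and tag open chromatin, gave the peaks. Of the 6 libraries, 3 came from Mixl1-inducible epiblast stem cells given 1 µg/mL doxycycline for the 24 h before collection, and 3 from Mixl1 knockout cells. All were mouse epiblast stem cells kept on irradiated embryonic fibroblasts and then grown as embryoid bodies for 2 days with serum. Mixl1 is a homeobox factor of the primitive streak.

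Each group is represented by 1 peak list. The list of the knockout is named KO. No label explains the name FM of the other list, which was taken as the induced one because the series has only these groups. With 1 list per group no value below has a replicate error, and no test between the groups was possible. The labels give doxycycline only for the induced cells, so that induction, doxycycline and the cells used cannot be told apart. They do not say how Mixl1 was disrupted, how many clones the lines are, or whether the inducible cells keep their own Mixl1. The depth in reads is unknown. Both lists had peaks, overlapping or not, at 6 of 6 epiblast marker genes, 6 of 6 primitive streak genes and 5 of 6 fibroblast genes. The fibroblast genes stand for feeder cells. Both lists had peaks, counted in the same way, at 78.8% of all protein-coding genes. Of the specific peaks, those that overlap no peak of the other list, FM-specific ones made up 80.9% at the fibroblast genes, 71.7% at the epiblast genes and 72.9% at the streak genes, against 73.7% over all genes. Twist2 held 33 of the 55 FM-specific peaks of the fibroblast genes, and without it, an omission chosen after seeing the data, their share was 71%. The gene with most specific peaks was Sox2 among the epiblast genes and Gsc among the streak genes. Without Sox2 the epiblast share was 67.9%, and without Gsc the streak share was 64.3%. These trimmed shares rested on 31 fibroblast, 28 epiblast and 28 streak specific peaks. The fibroblast share was the highest of them, and each lay under the 73.7% of all genes. Mixl1 itself had 4 FM and 6 KO peaks, of which 0 and 2 were specific, and since the altered part of the gene is not given these do not check the knockout. A peak near a gene is no measure of its expression, and the part of feeder cells in the values below was not tested.

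The heart arises from mesoderm that leaves the primitive streak. Nkx2-5, a homeodomain factor, and Isl1, a LIM homeodomain factor of the second heart field, are among the first regulators of its progenitors. Mef2c is a MADS-box factor and Myocd, myocardin, a coactivator of serum response factor, and both act on muscle genes. Smarcd3 encodes Baf60c, a subunit of the SWI/SNF chromatin remodelling complex that works with cardiac transcription factors. Tnnt2 encodes cardiac troponin T of the thin filament, Myl7 the atrial regulatory light chain and Myh6 the alpha heavy chain of myosin, which are made once cardiomyocytes differentiate.

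The starts of these genes differ in sequence, and the 250 bases before 1 start of each of 6 genes are shown since the peaks at the starts are described against them. They were read 5′ to 3′ from RefSeq promoters of assembly GRCm38.p6, for which mm10 is another name, where 7 of the 8 genes matched. The regions are chr17:26841566-26841815 (minus strand) for Nkx2-5, chr13:116309689-116309938 (minus) for Isl1, chr5:24602003-24602252 (minus) for Smarcd3, chr1:135836084-135836333 (plus) for Tnnt2, chr11:5898783-5899032 (minus) for Myl7 and chr14:54966608-54966857 (minus) for Myh6. Capitals mark GATAA on either strand and, in Myl7, also the CArG box, the site of serum response factor.
Nkx2-5: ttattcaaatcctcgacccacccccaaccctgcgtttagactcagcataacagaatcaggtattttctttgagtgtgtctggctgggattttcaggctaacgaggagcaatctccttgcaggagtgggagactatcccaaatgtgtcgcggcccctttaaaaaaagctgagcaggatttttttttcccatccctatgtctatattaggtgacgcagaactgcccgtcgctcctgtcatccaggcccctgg
Isl1: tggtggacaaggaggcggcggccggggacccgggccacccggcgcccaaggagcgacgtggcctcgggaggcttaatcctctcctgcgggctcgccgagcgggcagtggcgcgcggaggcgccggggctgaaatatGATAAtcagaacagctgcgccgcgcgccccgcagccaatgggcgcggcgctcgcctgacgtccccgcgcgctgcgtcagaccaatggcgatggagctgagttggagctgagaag
Smarcd3: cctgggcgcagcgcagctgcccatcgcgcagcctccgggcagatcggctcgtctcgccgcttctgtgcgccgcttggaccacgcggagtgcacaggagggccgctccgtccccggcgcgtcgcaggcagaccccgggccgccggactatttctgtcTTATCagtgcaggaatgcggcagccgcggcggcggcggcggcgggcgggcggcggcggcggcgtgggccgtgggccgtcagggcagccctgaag
Tnnt2: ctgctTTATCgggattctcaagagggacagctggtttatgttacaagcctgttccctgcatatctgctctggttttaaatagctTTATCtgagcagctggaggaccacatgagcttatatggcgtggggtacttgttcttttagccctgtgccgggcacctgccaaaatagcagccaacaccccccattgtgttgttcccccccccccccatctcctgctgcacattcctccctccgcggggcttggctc
Myl7: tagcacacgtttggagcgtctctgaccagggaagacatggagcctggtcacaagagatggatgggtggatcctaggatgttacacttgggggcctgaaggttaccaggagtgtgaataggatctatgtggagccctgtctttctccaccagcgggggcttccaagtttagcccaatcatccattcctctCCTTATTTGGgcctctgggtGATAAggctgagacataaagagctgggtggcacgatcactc
Myh6: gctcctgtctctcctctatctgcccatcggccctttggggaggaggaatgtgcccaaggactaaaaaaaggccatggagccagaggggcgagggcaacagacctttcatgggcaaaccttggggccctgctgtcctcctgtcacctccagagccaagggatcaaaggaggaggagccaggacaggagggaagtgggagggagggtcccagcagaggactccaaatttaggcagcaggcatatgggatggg

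The windows of Isl1 and Smarcd3 are rich in CpG. Over the 300 bases from 250 before to 50 after the start, the observed over expected CpG ratio was 1.1 at Isl1 and 0.96 at Smarcd3. It was 0.47 at Nkx2-5. The windows of the sarcomere genes were poor in CpG, with 0.24 at Myl7, 0.083 at Myh6 and 0.23 and 0.064 at the 2 starts of Tnnt2. Mef2c had 3 starts with 0.11, 0.61 and 0.23, and the median of all 32851 windows was 0.38. GATAA stood in the 250 bases before the starts of Isl1, Smarcd3 and Myl7, 1 of the 3 of Mef2c and 1 of the 2 of Tnnt2. Of all windows of this length, 22.6% hold it. The CArG box was found only before Myl7 among the 10 windows of these genes, 61 to 52 bases before the start, and 1.47% of all windows hold one. TATAAA was found before 2 starts of Mef2c (12.4% of all windows). TAAT followed by ATTA after 3 further bases, a paired-type homeodomain site (0.463% of all windows), the T-box letters AGGTGTGA (1.12%) and the MEF2 site (2.92%) were in none of the 10 windows. AAGTG, the core of NK2 homeodomain sites, stood before Mef2c, Myl7 and Myh6 starts (40.7% of all windows). Both strands were searched, and no motif overlapped another in the sequences shown.

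Of these 10 windows, 4 overlapped a peak, each of them in both lists, and the other 6 in neither. Over all windows the share with a peak was 54.6% in FM and 51.1% in KO. The 4 belong to Nkx2-5, Isl1, Mef2c and Myh6. The share rose with CpG content. In windows with a ratio under 0.2 it was 17.6% for FM and 12.7% for KO peaks, and in those of 0.8 to 1.0 it was 96.7% for both. The window of Smarcd3 is in that upper class and had no peak, whereas that of Myh6 is in the lowest class and had one.

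**Figure D1:**
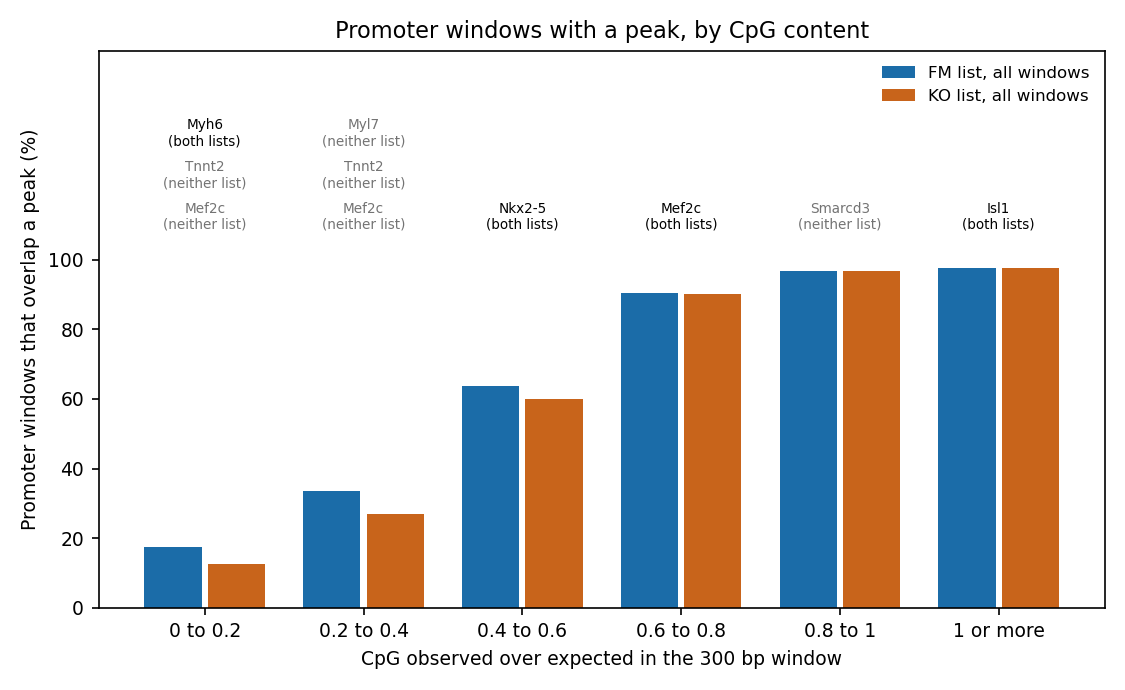
Share of all promoter windows that overlap a peak (y axis, percent) by their CpG observed over expected ratio (x axis), FM bars left of KO bars, with the 10 windows of the cardiac genes written above their class. The share climbs from 17.6% (FM) and 12.7% (KO) in the lowest class to 97.5% in the highest, and Smarcd3 is the window without a peak in a class where 96.7% have one.

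At Nkx2-5 (gene ID 18091, chr17:26838664-26844988, mm10) the FM list had 17 peaks and the KO list 15. Of these, 6 FM and 2 KO peaks had no overlap with the other list and are called specific. Over all peaks with a gene, 50.2% of FM and 26.6% of KO peaks were specific. The start lay under a peak in both lists. The FM peak, chr17:26840963-26841619, had a fold enrichment over the local background of 2.14 and a −log10 q of 9.74. The KO peak, chr17:26841127-26841710, had a fold of 2.76 and a −log10 q of 26.2. The fold and the p-value of a peak together give the fragments piled up at its summit, which were 103 over a local background of 47.7 in FM and 162 over 58.1 in KO. Pileups compare between the lists only if both were called with the same fragment extension. The fold, pileup and local background were all higher for KO, and the start was the KO peak of highest fold at this gene.

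Upstream of Nkx2-5, shared peaks lay at several distances. A broad FM peak, chr17:26849611-26851203, had its summit 9.1 kb before the start with a fold of 2.65, beside the KO peak chr17:26849895-26850730 with 2.69. The FM peak of highest fold at this gene, chr17:26877098-26878224, lay 36.3 kb before the start with 2.74, and its KO counterpart had 1.91. At 16.1 kb the FM list had 2.38 and the KO list 2.62. Of the specific peaks, the most significant FM one, chr17:26867735-26868317, had a fold of 2.29 and a −log10 q of 8.2, and the KO one, chr17:26862623-26862842, had 1.89 and 5.04. The only other specific KO peak, chr17:26844689-26844961 with a fold of 1.85, lay inside the annotated gene 3.25 kb before the start used here.

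Isl1 (gene ID 16392, chr13:116298270-116309688) had 1 peak in each list, at its start. The FM peak, chr13:116309393-116310269, had a fold of 2.44 and a −log10 q of 9.03. The KO peak, chr13:116309486-116310186, had 2.31 and 7.67. Pileups were 71 and 68 fragments, over the genome-wide background of 28.6 in FM and 28.8 in KO. Isl1 had the fewest peaks of the 8 genes, over 211 kb of sequence that lay nearest to it. Just outside the 100 kb limit, 105.3 kb from the gene, both lists had a far stronger shared peak. At chr13:116192797-116193088 the FM fold was 8.39 with a pileup of 247, within the top 0.12% of FM peaks by fold. The KO peak there, chr13:116192797-116193089, had a fold of 11.4 and a pileup of 340, within the top 0.121% of KO peaks. The farthest peaks inside the limit were an FM peak 81.21 kb from Myocd with a fold of 1.86 and a KO peak 78.04 kb from Mef2c with 7.17.

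Mef2c (gene ID 17260, chr13:83504017-83667079) had 14 FM and 12 KO peaks, with 2 specific in each list. Its strongest peaks lay beyond the far end of the gene. The peak 78 kb past that end had a fold of 5.55 in FM (chr13:83744779-83745554) and 7.17 in KO (chr13:83744892-83745538). These were within the top 1.18% of FM and 1.34% of KO peaks by fold, and the pileups were 163 and 213 fragments. A second one, its summit 64.3 kb (FM) and 64.1 kb (KO) past the end, had a fold of 3.91 (chr13:83730440-83731643) in FM and 4.26 (chr13:83730435-83731669) in KO. There the pileup was 158 fragments in FM and 256 in KO. The only KO-specific peak at the 8 genes with a −log10 q of at least 10 stood beside it, chr13:83729410-83729957, with a fold of 2.1, a −log10 q of 12.4 and a pileup of 137. Over all peaks with a gene, 3.01% of FM and 2.4% of KO peaks were specific at that threshold. The other KO-specific peak of Mef2c, chr13:83733603-83733802 with 1.97, lay 66.6 kb past the gene end. The local background in the KO list was 64.8 and 55.8 fragments at these 2 peaks, above the genome-wide 28.8.

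The 3 starts of Mef2c differed. The first annotated start had no peak in either list, and the nearest, 13.7 kb (FM) and 13.9 kb (KO) into the gene, had folds of 3.18 and 3.15. The second start lay under a peak with 2.5 in FM (chr13:83523602-83524012) and 2.81 in KO (chr13:83523643-83524016). At the third, the FM list had a specific peak 1.16 kb away with a fold of 1.96, whereas the nearest KO peak was 48.7 kb away.

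Myocd (gene ID 214384, chr11:65173608-65269989) had 11 FM and 4 KO peaks, of which 8 and 1 were specific. The strongest peak of both lists lay over the gene end of higher coordinate. It had a fold of 3.17 and a −log10 q of 21.3 in FM (chr11:65269631-65270391), and 4.74 and 54.2 in KO (chr11:65269612-65270654). The pileups were 105 and 161 fragments over backgrounds of 32.4 and 33.2. The 5 FM peaks farther out beyond that end were all specific, from 26.1 to 81.2 kb away, and were weak, with folds of 1.69 to 1.86 and pileups of 49 to 54 fragments. The FM-specific peak of highest significance, chr11:65186918-65187256, stood inside the gene with 2.5 and a −log10 q of 9.82. A shared peak beside it had 2.64 in FM and 2.18 in KO. The KO-specific peak, chr11:65236709-65236925, had 2.11.

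Smarcd3 (gene ID 66993, chr5:24592622-24624456) had 19 FM peaks, the most of the 8 genes, and 15 KO peaks, as many as Nkx2-5, with 7 and 3 specific. The gene end of higher coordinate lay under a peak with a fold of 2.89 in FM (chr5:24624033-24625254) and 3.49 in KO (chr5:24623646-24625148). The start of the window shown above lies inside the gene. It was flanked but not covered by peaks. On its downstream side the FM peak chr5:24601238-24601728 ended 0.274 kb away with a fold of 1.75, and the KO peak chr5:24601399-24601738 ended 0.264 kb away with 1.42. The pileups there were 182 and 127 fragments, which were high, but so were the local backgrounds, 103 in FM and 89.3 in KO. On the upstream side the nearest peak, its summit 1.18 kb (FM) and 1.19 kb (KO) away, had folds of 1.8 and 1.99. The next one, 2.67 kb (FM) and 2.95 kb (KO) away, had 2.0 and 3.33, with pileups of 174 and 256. A run of 4 FM-specific peaks lay 33.5 to 37.6 kb before the start, and the last of them, chr5:24639247-24639828, had a fold of 2.45 and a −log10 q of 12.1. It was 1 of 2 FM-specific peaks of at least 10 among the 78. The KO-specific peak of highest fold, chr5:24617318-24617519, lay inside the gene with 1.94, and that of highest significance, chr5:24654808-24655037, lay 30.5 kb outside it with 1.83.

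**Figure D2:**
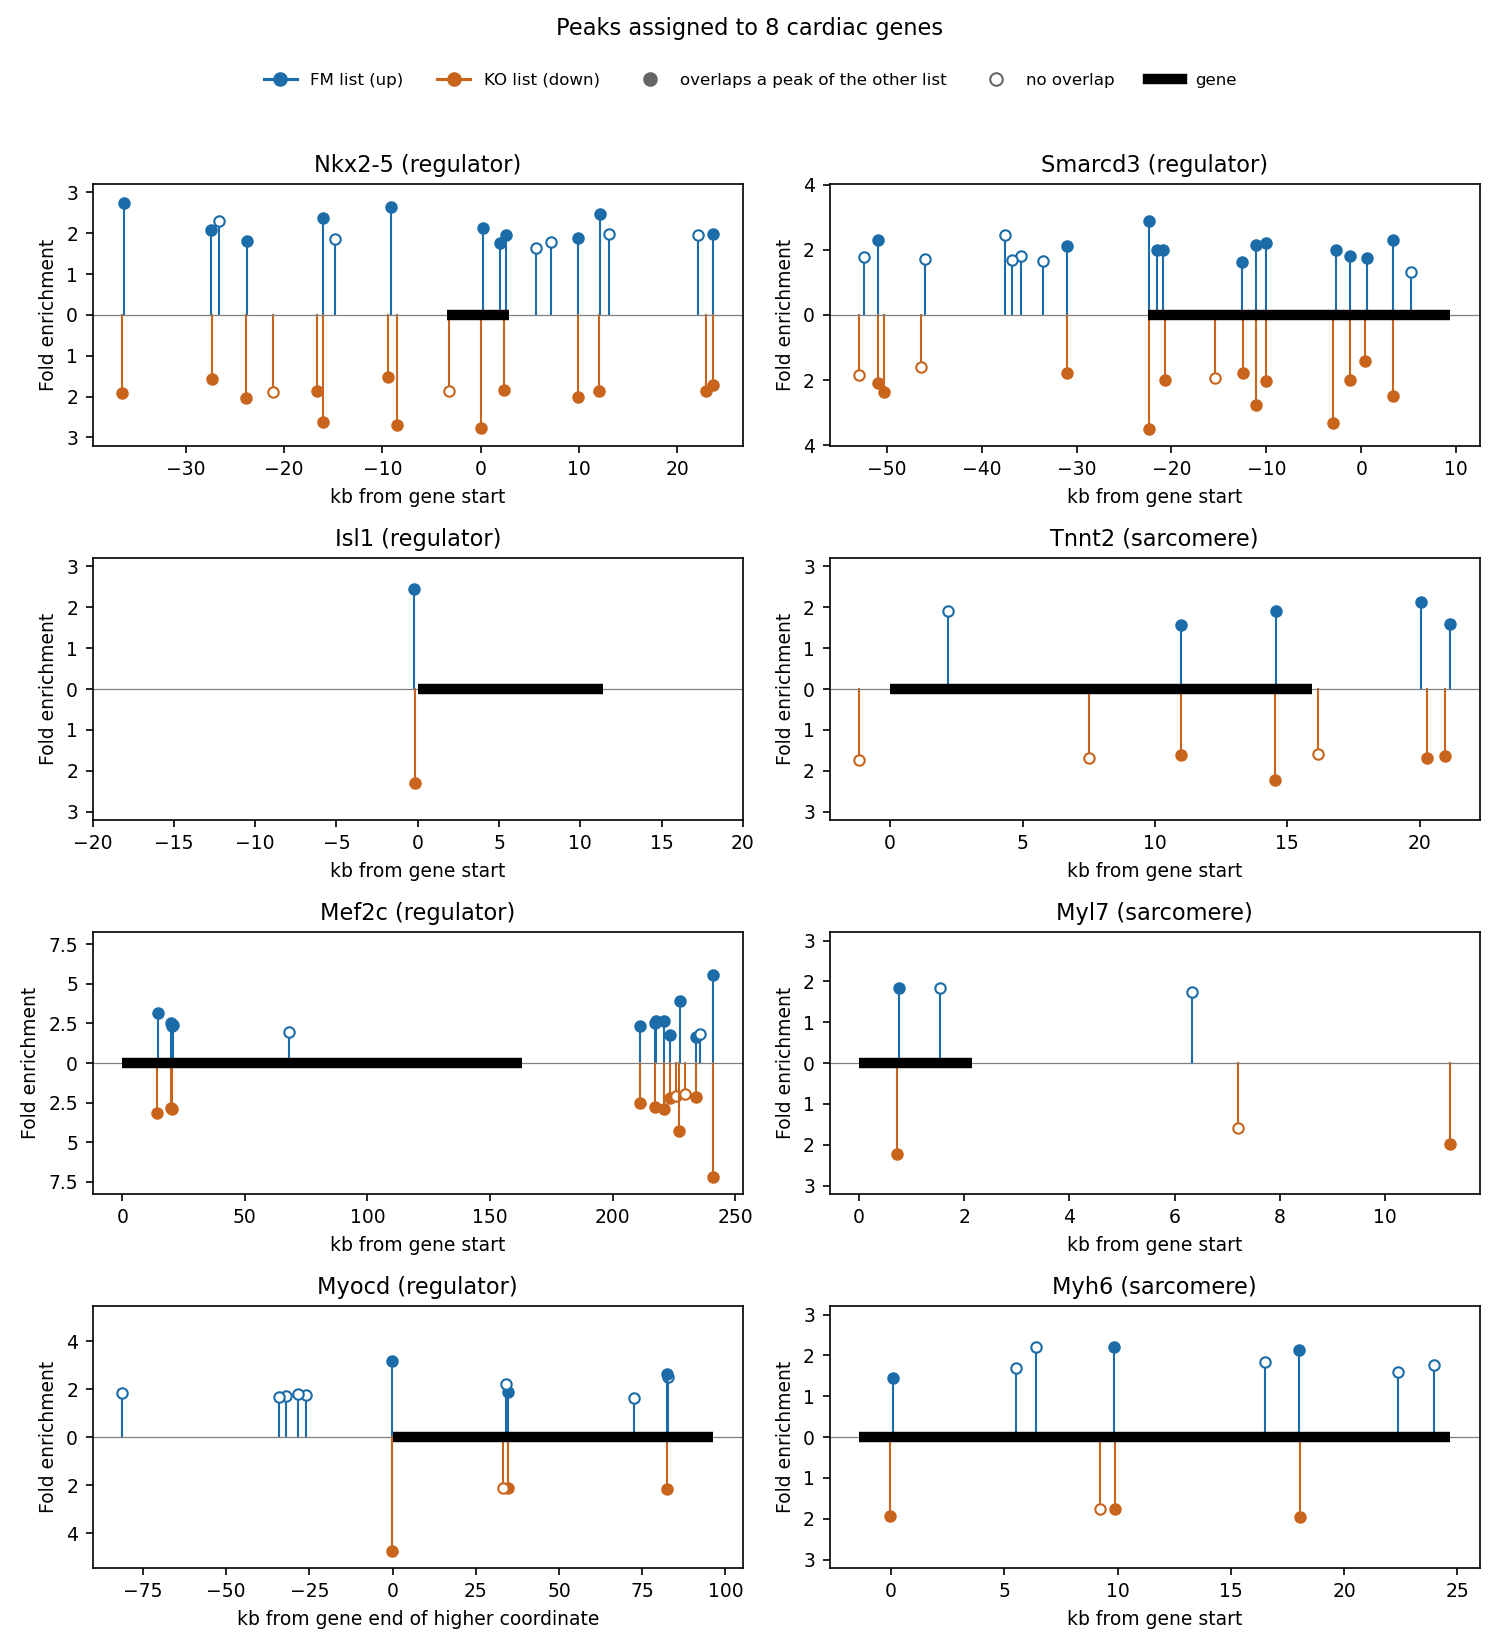
Position of each assigned peak in kb from the first gene start in the promoter table (x axis; for Myocd, from the gene end of higher coordinate), with its fold enrichment (y axis) upward for the FM list and downward for the KO list; filled points overlap a peak of the other list and the black bar is the gene. The tallest peaks lie past the end of Mef2c, with 5.55 in FM and 7.17 in KO, and Isl1 has 1 peak in each list.

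Among the sarcomere genes, Tnnt2 (gene ID 21956, chr1:135836315-135852268) was the 1 gene of the 8 with more KO-specific than FM-specific peaks. It had 5 FM and 7 KO peaks, of which 1 and 3 were specific. Over all protein-coding genes, the FM list had more specific peaks at 56.9% and the KO list at 11.7%. Neither start of Tnnt2 had a peak. The nearest FM peak to the first start, chr1:135838388-135838731, lay 2.05 kb into the gene, was specific and had a fold of 1.92. The nearest KO peak, chr1:135835022-135835226, lay 1.11 kb before it, was specific and had 1.74. The other specific KO peaks had folds of 1.68, inside the gene, and 1.59, just past its end. The strongest shared peak inside the gene had 1.9 in FM (chr1:135850702-135851401) and 2.23 in KO (chr1:135850720-135851304), with pileups of 144 and 145. Past the gene end, the highest FM fold was 2.12 (chr1:135856154-135856697), against 1.7 for its KO counterpart.

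Myl7 (gene ID 17898, chr11:5896637-5898782) is short, 2.15 kb, and had 3 peaks in each list. None covered the start or the CArG box before it. The nearest, inside the gene, ended 0.439 kb from the start in FM (chr11:5897902-5898343) and 0.417 kb from it in KO (chr11:5897912-5898365). Its fold was 1.83 in FM and 2.23 in KO, and its pileups were 129 and 120 over backgrounds of 70.2 and 53.2. The FM list had a further, specific peak inside the gene, chr11:5897125-5897790, with 1.83 and a −log10 q of 7.68. One KO peak, chr11:5886728-5887681 with 1.99, overlapped an FM peak whose summit lay nearer to Pold2. The KO-specific peak, chr11:5891441-5891711, had 1.59.

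Myh6 (gene ID 17888, chr14:54941921-54968017) had 8 FM and 4 KO peaks, all inside the gene, of which 5 and 1 were specific. The start lay under a weak peak in both lists. The FM peak, chr14:54966459-54966691, had a fold of 1.45 and a −log10 q of 1.54, and the KO peak, chr14:54966510-54966711, had 1.93 and 5.03. Pileups were nearly equal, 69 and 72 fragments, and the local backgrounds were 47.1 and 36.9. The FM-specific peak chr14:54960105-54960347 had a fold of 2.21 and a −log10 q of 10.7, the second of the strong FM-specific peaks at these genes. The highest shared fold was 2.21 (chr14:54956547-54956883) in FM, beside 1.77 in KO (chr14:54956530-54956804). One FM-specific peak, chr14:54942537-54942736, lay in 2 genes and was counted for both. The neighbouring Myh7, the beta heavy chain gene, had a strong FM-specific peak of its own, chr14:54985533-54985825, with 2.7 and a −log10 q of 16.6.

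**Figure D3:**
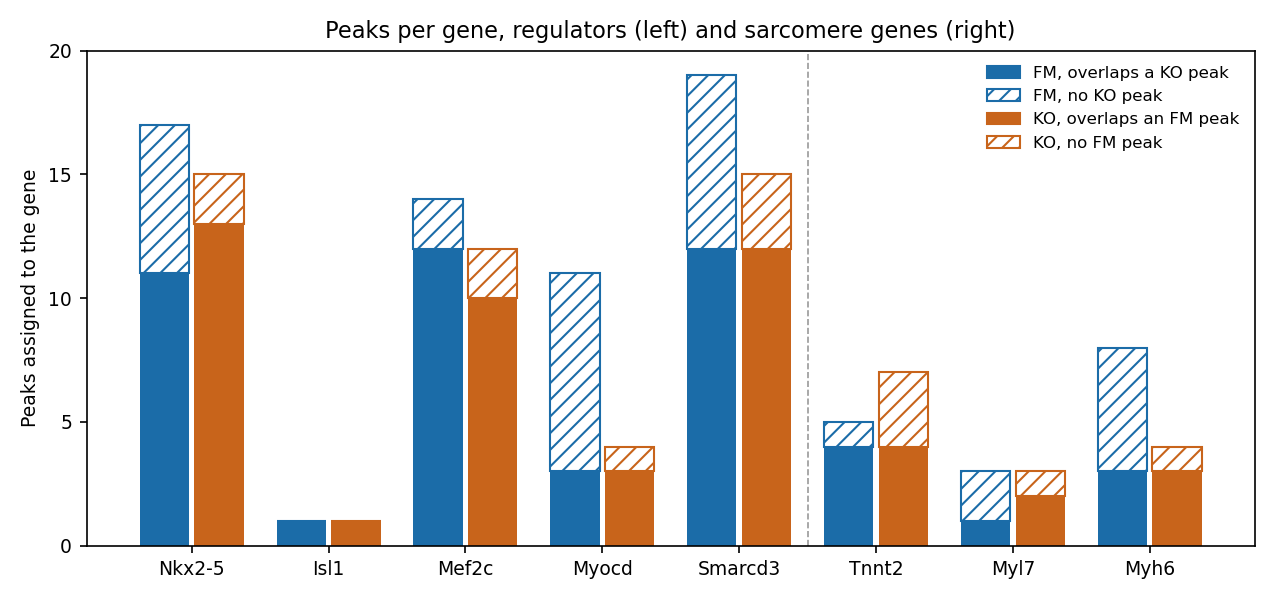
Number of peaks assigned to each gene (y axis) in the FM list (left bar) and the KO list (right bar), solid where a peak overlaps the other list and hatched where it does not. Myocd has 8 specific of 11 FM peaks and Mef2c 2 of 14, and Tnnt2 alone has more KO peaks (7) than FM peaks (5) among these genes.

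The regulators were set against the sarcomere genes as groups. Of the regulators' peaks, 39 of 62 FM peaks (62.9%, exact binomial Clopper-Pearson 95% interval 49.7 to 74.8) and 39 of 47 KO peaks (83%, 69.2 to 92.4) were shared. Of the sarcomere genes' peaks, 8 of 16 FM peaks (50%, 24.7 to 75.3) and 9 of 14 KO peaks (64.3%, 35.1 to 87.2) were. These intervals cover the counting of peaks only, and they overlap between the gene groups. The background was 49.8% shared for FM peaks and 73.4% for KO peaks. The regulators had 23 FM-specific and 8 KO-specific peaks, so that 74.2% (55.4 to 88.1) of their specific peaks were FM-specific. With the 50000 peaks of lowest p from each list, 5 of 13 were, or 38.5% (13.9 to 68.4), against 50.6% over all genes in that setting. This setting changes the significance cutoff as well as the lengths of the lists, and what lowered the share was not tested. With all peaks, the sarcomere genes had 8 and 5, or 61.5% (31.6 to 86.1). The background with all peaks was 73.7%, so the regulators' share is near that of all genes and the interval of the sarcomere genes includes it. The difference between the gene groups was 12.7 percentage points, with an interval from −18.3 to 45.7, and it was −3.58 without Tnnt2 and 31.3 without Myh6. The direction of this difference also changed in other settings, as given in the closing section.

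Among these 8 genes, the peaks above the 90th percentile of fold in their list lay at regulators. That percentile was 2.81 in FM and 3.52 in KO, and 10.2% of FM and 10.3% of KO peaks with a gene exceed it. Of the regulators' peaks, 5 of 62 FM and 3 of 47 KO peaks did, near or under that background, and of the sarcomere genes' peaks 0 of 16 and 0 of 14. This did not extend to the 20 other sarcomere genes counted, where 18 of 248 FM and 9 of 155 KO peaks exceeded it, with folds of up to 8.3 and 8.32. The median fold was 1.99 (FM) and 2.1 (KO) at the regulators, 1.83 and 1.75 at the sarcomere genes, and 1.96 and 2.01 over all peaks with a gene. The highest sarcomere fold was 2.21 in FM and 2.23 in KO. Specific peaks were weaker than shared ones at the regulators, with medians of 1.79 against 2.3 in FM and 1.92 against 2.18 in KO. At the sarcomere genes the medians were 1.8 against 1.87 and 1.68 against 1.93. Specific peaks were also the weaker ones over all peaks with a gene, with 1.86 against 2.16 in FM and 1.88 against 2.08 in KO.

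**Figure D4:**
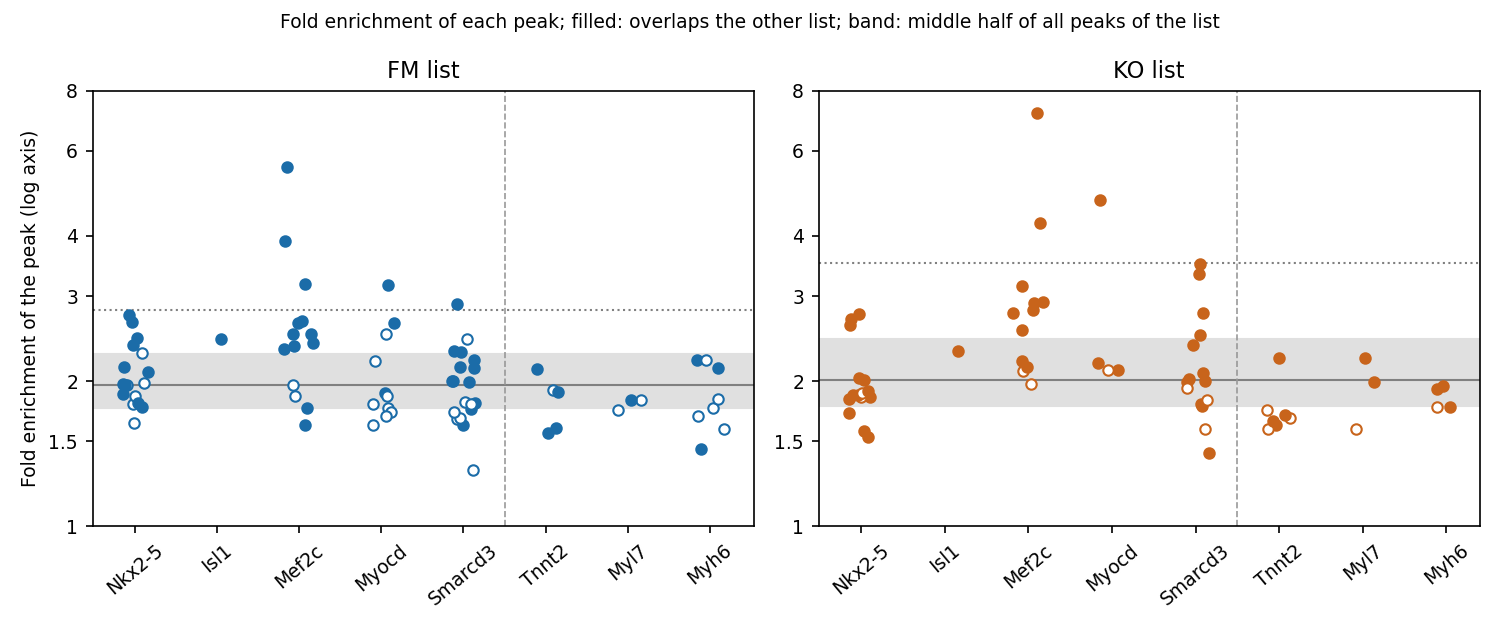
Fold enrichment of each peak (y axis, log scale) by gene, FM list left and KO list right; filled points overlap the other list, the grey band spans the middle 50% of all peaks of that list, the solid line is their median and the dotted line their 90th percentile. The peaks of the 3 sarcomere genes stay at or under 2.21 (FM) and 2.23 (KO), while Mef2c reaches 5.55 and 7.17.

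The surroundings of the regulators differed from gene to gene. About Nkx2-5 and Smarcd3, 65.4 and 62.5 kb of sequence lay nearest to the gene, and peaks were dense, with 26 and 30.4 FM peaks and 22.9 and 24 KO peaks per 100 kb. About Isl1, Mef2c and Myocd, with 211, 363 and 202 kb, there were 0.473, 3.86 and 5.45 FM peaks and 0.473, 3.31 and 1.98 KO peaks per 100 kb. The sarcomere genes together had 24 FM and 21 KO peaks per 100 kb over 66.8 kb, somewhat fewer than Nkx2-5 and Smarcd3, and all genes had 10.1 and 6.84. The local background was at the genome-wide level at 11 of 14 FM and 5 of 12 KO peaks of Mef2c, at 10 of 11 FM and 3 of 4 KO peaks of Myocd, and at no sarcomere peak (0 of 16 FM, 0 of 14 KO). The regulators were split in this, since no peak of Smarcd3 (0 of 19 FM, 0 of 15 KO) was at that level. At Nkx2-5 it was 1 of 17 FM and 0 of 15 KO peaks, and at Isl1 the 1 peak of each list. Over all peaks with a gene, 24.9% (FM) and 26.3% (KO) were at that level. The median local background of the sarcomere peaks was 51.2 fragments in FM and 47.5 in KO, against 36.5 and 35.6 over all. At Smarcd3 the median was similar, 52.4 in FM and 45.9 in KO, and at Nkx2-5 it was 36.2 and 39.1. A given fold thus stood for more fragments at the sarcomere genes than over all peaks, as it did at Smarcd3. The median pileups of the sarcomere peaks, 101 (FM) and 88 (KO), exceeded the 75.5 of the regulators in FM but not their 92 in KO. Whether the local background accounts for the lower folds of the sarcomere genes was not tested.

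**Figure D5:**
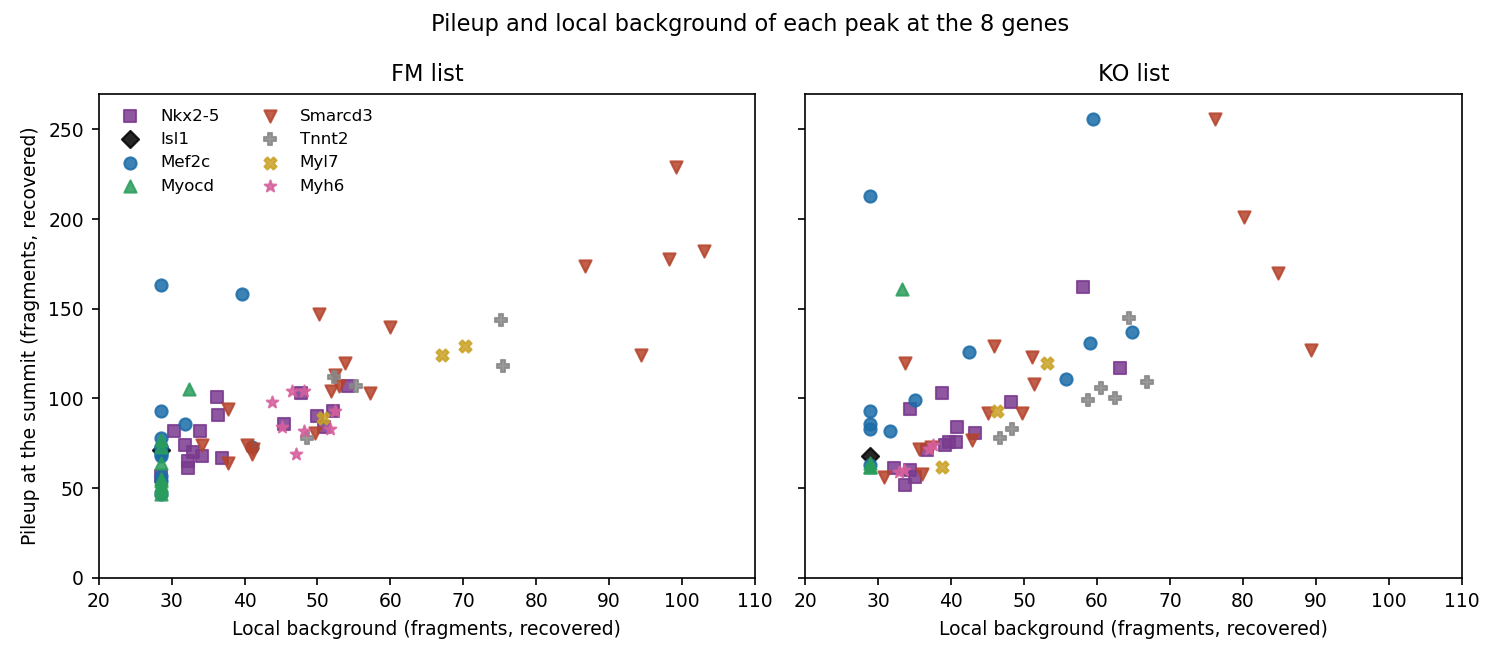
Fragments piled up at the summit of each peak (y axis) against the local background (x axis), both recovered from the deposited fold and p-value, FM list left and KO list right, 1 symbol per gene. Mef2c, Myocd and Isl1 peaks line up at or near the genome-wide background of 28.6 (FM) or 28.8 (KO), with Mef2c also higher in the KO list, and the sarcomere genes lie at 43.7 to 75.5 in the FM list.

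Gene bodies fill 34.2% of the sequence nearest to the regulators and 66.2% of that nearest to the sarcomere genes, and its part in the shares that follow was not tested. At the sarcomere genes 13 of 16 FM peaks (81.2%) and 8 of 14 KO ones (57.1%) had their summit inside the gene. At the regulators this held for 24 of 62 FM (38.7%) and 19 of 47 KO peaks (40.4%). Over all peaks with a gene the shares were 62.1% and 59.4%. No test of these shares was made.

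A wider set of cardiac genes was counted for context. The 22 other cardiac regulators had 185 specific peaks on the FM side and 59 on the KO side, an FM share of 75.8% (69.9 to 81.1). The FM side had more at 16 of these genes and the KO side at 2. Over all genes the FM share was 73.7%, within that interval, and 56.9% of genes had more on the FM side and 11.7% on the KO side. Tbx3 had 30 FM-specific and 7 KO-specific peaks, Tbx5 29 and 4, and Gata4, a zinc finger partner of Nkx2-5, 22 and 2. Zfpm2, a cofactor of Gata4, went the other way with 2 and 20, of which 3 KO-specific peaks had a −log10 q of at least 10. Such strong FM-specific peaks were found at Gata4, Hand1, Tbx2, Tbx3, Tbx5 and Tbx20, and strong KO-specific ones at Gata5, Gata6, Mef2d, Zfpm2 and Foxc2. They made up 9 of 353 FM and 7 of 231 KO peaks of the 22 genes. Over all peaks with a gene the shares were 3.01% and 2.4%.

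The 20 other sarcomere genes had 129 specific peaks on the FM side and 35 on the KO side, an FM share of 78.7% (71.6 to 84.7), with more on the FM side at 15 genes and on the KO side at 2. The 73.7% of all genes lies within this interval too. Tpm1, a tropomyosin gene, had 20 and 4, Myom1, of the M-band, 14 and 10, and Nebl, of the Z-disc, 18 and 3. Strong FM-specific peaks lay at Myl2, Myl4, Myh7 and Tnni1, and strong KO-specific ones at Des, Ldb3, Ttn and Tpm1. They were 5 of 248 FM and 5 of 155 KO peaks of these genes, against 3.01% and 2.4% over all peaks with a gene. Among all 8 genes of the main set, 70.5% (54.8 to 83.2) of the specific peaks were FM-specific, from 31 and 13 peaks, and 5 genes had more FM-specific peaks. Both lists had peaks, overlapping or not, at all 8 genes and at 78.8% of all protein-coding genes.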

How the data were processed

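ATAC-seq libraries of 50000 cells, amplified with 11 PCR cycles, were deposited as 1 peak list per group. Reads were processed with bcl2fastq, Bowtie2, SAMtools and MACS2 on build mm10, per the submitters' processing notes. Not given in the sources used here are versions, the pooling of libraries, read filters and any Tn5 shift. Each deposited peak carries, from the authors, a fold enrichment (a ratio), a −log10 p-value and a −log10 q-value. The lowest −log10 q was 1.3 in both lists. They are the peak caller's own and describe peaks within a list.

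Of 279817 FM and 191107 KO rows, those with the same interval were collapsed to the one of lowest p-value. Peaks were assigned by summit to the nearest of 21887 RefSeq protein-coding genes of GRCm38.p6 within 100 kb, with ties counted for each gene. Shared peaks overlap by at least 1 bp. Pileups and local backgrounds were solved from fold and p, taking MACS2's Poisson form, and were whole within 0.02 for 205652 of 205659 solved FM peaks and 138451 of 138457 KO peaks. They compare between lists only if both were called with the same fragment extension. Overlap, assignment and recovery were tested on simulated data. Shares carry Clopper-Pearson intervals, and the difference of 2 shares an interval combined from theirs. Python 3.11.15 with numpy 2.4.6, pandas 2.3.3 and scipy 1.17.1 was used.

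The 8 genes, the other lists and the rules were chosen with earlier results of these data known. The genes named are the 8, and in the other lists the 3 with most specific peaks and those with a specific peak of −log10 q of at least 10. At each of the 8, the peaks named were drawn from those at the ends or starts, the 3 of highest fold, and the strongest specific ones, with a few others chosen after their values were seen.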

Additional observations from a re-analysis of the deposited data

How the results depend on the processing

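Of 69 recomputed values, 57 stayed within the interval of the value reported and 12 moved outside it. Many of these intervals are wide and every setting reuses the same lists, so staying within an interval is weak evidence of stability. The difference between regulators and sarcomere genes changed sign in 5 settings, of which 3 values lay inside its interval and 2 (−50 and −36.5) outside. That difference, 12.7 percentage points as reported, was −10.1 where both lists were limited to peaks of −log10 q 5 or more, −50 where peaks of 10 or more were set against the whole other list, −36.5 with the 50000 peaks of lowest p from each list, −1.59 when every gene within 100 kb counted and −3.58 without Tnnt2. The cause was not tested. With a reciprocal overlap of at least 50%, 46.8% of FM and 61.7% of KO peaks at the regulators were shared. For peaks of −log10 q of at least 10 set against the whole other list these shares were 94.4% and 95%, and 100% of 2 KO peaks at the sarcomere genes were shared. The FM-specific share there rested on 2 regulator peaks (50%) and 1 sarcomere peak (100%). With 50000 peaks from each list the FM-specific share was 47.1% at all 8 genes (all genes 50.6%) and 38.5% at the regulators, where 63.6% of KO peaks were shared. Specific peaks at the 8 genes numbered 31 FM and 13 KO as reported, 43 and 26 with reciprocal overlap, 19 and 13 with −log10 q of at least 5, 2 and 1 at 10 against the whole other list, 8 and 9 with equal numbers and 126 and 46 with every gene within 100 kb. Leaving out replicates was not run, since each group has 1 list. No paired analysis was possible because the lists carry no replicates. With reads not counted here, weak specific peaks cannot be told from peaks just under the threshold in the other list.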

Other observations

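Some peaks within 10 kb of these genes had their summit nearer to a neighbour and are not in the counts above. Beside Smarcd3, peaks nearest to Chpf2 had folds of up to 2.59 in FM and 3.36 in KO, above several of the peaks counted for Smarcd3. Upstream of Myh6, 3 shared peaks nearest to Myh7 had folds of 1.61 to 1.87 in FM and 1.56 to 2.22 in KO. Before Tnnt2, each list had 1 specific peak nearest to Lad1, with 1.59 in FM (chr1:135831985-135832594) and 1.84 in KO (chr1:135834235-135834533).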
